A study of Mus musculus with 2 samples.

Results

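The tumor necrosis factor (TNF) superfamily was examined in salivary gland epithelial cells from young and aged mice. Its members were picked by gene name on the array, as Tnf and every name that begins with Tnfsf or Tnfrsf and a number, except Tnfsf13 and Tnfsf13b, which the rule leaves out. It took in 31 of the 36870 gene names on the array, with 54 probes in all. These were 10 ligands, 20 receptors and Tnfsf13os, which is a transcript from the strand opposite to Tnfsf13 and neither a ligand nor a receptor. Family members with older names, such as Fas or Cd40, were described separately. The cells came from submandibular glands of female mice of the strain C57BL/6 (given as C57BL/6N in the study's methods), 9 weeks old for the young array and 24 months old for the aged array, with no genetic change or treatment named for either age, and were taken up on magnetic beads by EpCAM, a surface protein of epithelial cells. Per the study's methods the young mice were bought from a supplier and the aged mice came from an institute's own facility, so age and source of the mice cannot be told apart. How many mice gave the RNA of an array is not stated. With 1 array for each age, the differences below could not be checked against replicates and were not tested.

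TNF superfamily ligands are mostly made as membrane proteins that act as trimers, and some are cut off to act as soluble cytokines. They bind receptors of the matching family, which recruit TRAF adaptor proteins and switch on NF-kB, or, where the receptor has a death domain, can start cell death. In salivary glands TNF is known as a cytokine of inflamed tissue, and several other members are signals between T cells, B cells and antigen-presenting cells.

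Signal is the background-corrected brightness of a spot, in the scanner's units. A probe was taken as measured on an array when the scanning software called it well above background. For comparison between the arrays, the log2 signal was set relative to the 75th percentile of all transcript spots of the same array, which came to 256 (young) and 198 (aged), so equal signals stand for a relative level that is higher on the aged array. A gene was read from its brightest measured probe, and a difference is the aged minus the young log2 value, with an error carried over from the error that the software gives for each spot. This error is the software's own estimate for a spot and was not measured from repeated spots or from the spread between mice. In 216 probes with at least 10 spots, the difference varied between spots with a median standard deviation of 0.03. For members measured on both arrays the error was 0.20 or more. A gene was called lower or higher when the difference reached 2-fold. Signals of different probes were not compared with each other, since probes bind with different strength.

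Of the 31 genes, 23 were measured on at least 1 array, namely 6 ligands, 16 receptors and Tnfsf13os. Of these, 20 were measured on both arrays, Tnfsf15 and Tnfrsf22 on the young array alone, and Tnfrsf11b on the aged array alone. The remaining 8 stayed near background on both arrays. They were the ligands Tnfsf4, Tnfsf11 (RANK ligand), Tnfsf14 and Tnfsf18 and the receptors Tnfrsf8 (the receptor of Tnfsf8), Tnfrsf13c, Tnfrsf17 and Tnfrsf26, of which Tnfrsf13c and Tnfrsf17 are receptors of B lineage cells. Their brightest signal was 17.3, for Tnfrsf8 on the young array, and no difference is given for them. Of the 54 probes, 34 were measured on at least 1 array and 20 on neither. Some of those 20 were further probes of measured members. These members were Tnfsf8, Tnfrsf9, Tnfrsf10b, Tnfrsf13b, Tnfrsf14, Tnfrsf19, Tnfrsf22 and Tnfrsf23, whose readings rest on their other probes.

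Tnf, Tnfsf15 and Tnfrsf19 were lower on the aged array, and no member was higher. Over all 21284 measured genes, 5.14% were at least 2-fold lower and 2.53% at least 2-fold higher. The 3 of 23 members are to be read against these shares, and no test of the count was made. In a bulk sample like this, fewer cells of a type and less RNA per cell cannot be told apart.

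**Figure D1:**
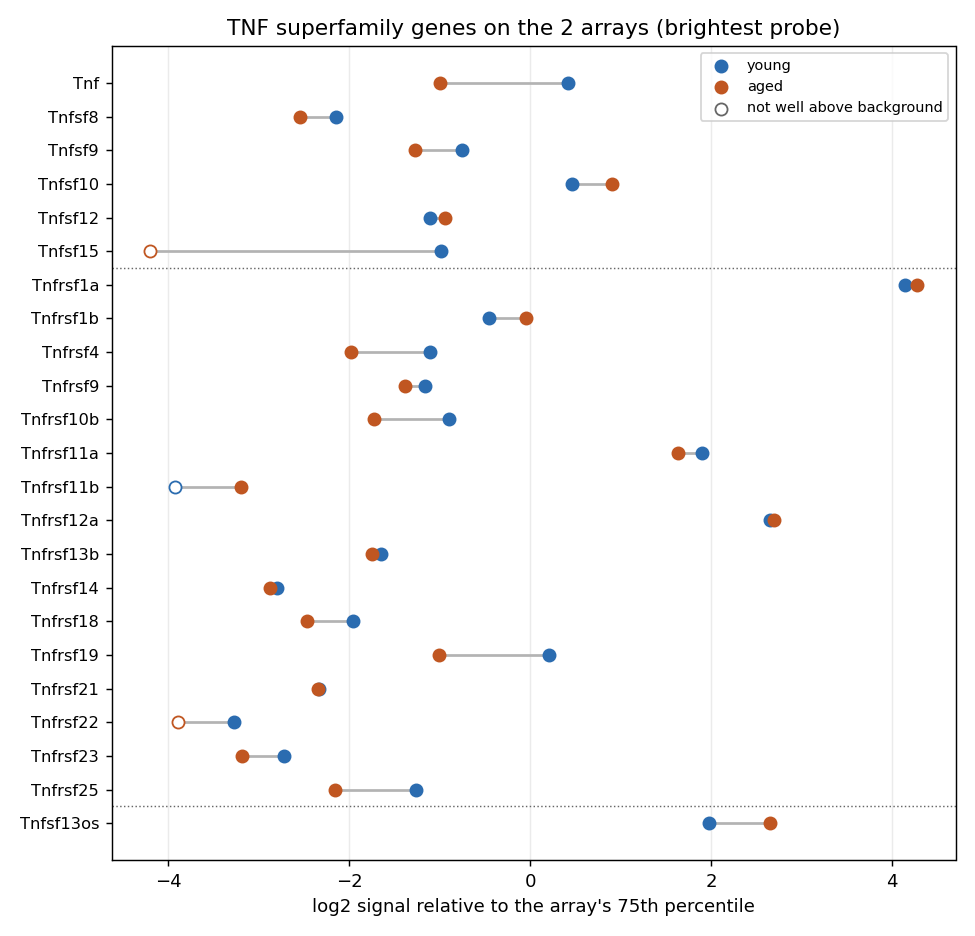
Log2 signal relative to the 75th percentile of each array for the 23 measured members, by gene and age (1 array each), with a grey line between the ages and dotted lines between ligands, receptors and Tnfsf13os. Open points were not well above background, as for Tnfsf15, Tnfrsf22 and Tnfrsf11b. The widest gap is that of Tnfsf15.

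Among the ligands, the cytokine Tnf itself had a signal of 343 ± 34.4 in the young sample and 99.0 ± 10.3 in the aged sample (± error of the software), a difference of -1.42 ± 0.21, or 2.68-fold lower. Tnfsf15 (TL1A), a ligand that stimulates T cells through Tnfrsf25, gave 129 ± 15.0 in the young sample and 10.8 ± 3.22 in the aged sample, where it was not well above background. The change can therefore only be bounded, at 7.0-fold lower or more. Tnf stayed visible in the aged sample, whereas Tnfsf15 did not.

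The calls of Tnf, Tnfsf15 and Tnfrsf19 came from 1 probe of each gene. For Tnf and Tnfrsf19 the other measured probe gave a smaller difference. For Tnfsf15 the other probe was too dim to give more than a small limit, so the sizes cannot be compared. The probes are DNA of 60 bases, and the coordinates below are those of the array's own annotation on the mouse build mm9. The first 30 bases of each probe are printed, 5′ to 3′, for the genes called lower, with the brighter probe first. They are shown because only the brighter probe of each gene passed 2-fold. Why the probes of Tnf and of Tnfrsf19 differ was not tested.
Tnf, A_51_P385099, chr17:35336795-35336854, minus strand: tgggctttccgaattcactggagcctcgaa
Tnf, A_55_P2740937, chr17:35336967-35337026, minus strand: ttattgtctactcctcagagcccccagtct
Tnfsf15, A_66_P106167, chr4:63385801-63385860, minus strand: gatgtcagtgttcacctattcttattgata
Tnfsf15, A_55_P2182452, chr4:63388134-63388193, minus strand: ggggctaaatagtaattttcaggaaagcct
Tnfrsf19, A_51_P399305, chr14:61582948-61583007, minus strand: aagccaggacaagatggaggagacaaggac
Tnfrsf19, A_55_P2742341, chr14:61615452-61615511, minus strand: aaactggttggttttcaagacatggagtgt
The Tnf probes lie 112 bases apart on the genome. The second one gave 183 (young) and 105 (aged), a difference of -0.42. The second probe of Tnfsf15, 2273 bases away, gave 22 in the young sample and 10.8, not well above background, in the aged sample, which bounds the difference at only -0.25. All of these probes were dimmer on the aged array, but the 2-fold call was not shared within a gene.

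Of the other ligands, Tnfsf9, which costimulates T cells through Tnfrsf9, had signals of 152 (young) and 81.9 (aged), given in this order from here on, a difference of -0.52 ± 0.21. Tnfsf8 (CD153), the ligand of Tnfrsf8, had 57.9 and 33.8, a difference of -0.40 ± 0.26, from a probe matched to an Ensembl transcript. A second Tnfsf8 probe gave no signal well above background. Tnfsf8 is the ligand that the study used, on the T cell surface, to mark senescence-associated T cells, and its reading here was dim on both arrays. Tnfsf12 (TWEAK), a ligand that acts on epithelial and stromal cells through Tnfrsf12a, had 119 and 103, a difference of 0.16 ± 0.21 that was smaller than its error.

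Tnfsf10 (TRAIL), a ligand that can start cell death, gave opposite directions from its measured probes. The brighter one had signals of 354 and 372 and a difference of 0.44 ± 0.20, and the other, matched to the RefSeq transcript, had 54.6 and 21.3 and a difference of -0.98. Their first 30 bases are shown because the brighter probe is unusual.
Tnfsf10, A_66_P109553, chr3:27241303-27241349, plus strand: agcgcccctgacaacAGCGCCCCTGACAAC
Tnfsf10, A_55_P2018017, chr3:27238508-27238567, plus strand: gggaaatgttaaactttgtaaactctgaaa
The capitals mark the second copy of a unit of 15 bases. The brighter probe repeats this unit through its whole length, with every base equal to the base 15 positions on, and 66.7% of its bases are G or C. Only 42 of the 56605 probes on the array (0.0742%) matched themselves at more than 90% of positions under a shift. The annotation gives the 60 bases of this probe a span of 47 bases on mm9. Which transcripts this probe binds was not tested.

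For the receptors of TNF, the brightest probes differed by less than 2-fold. Tnfrsf1a, the death domain receptor of TNF present on most cells, had signals of 4542 and 3842, a difference of 0.13 ± 0.20, and its second probe gave 0.10. The brighter probe of Tnfrsf1b, the other TNF receptor and one without a death domain, had 187 and 191 and a difference of 0.40 ± 0.21. Its second probe, the one matched to the RefSeq transcript, had 53.3 and 20.4 and a difference of -1.01, past the 2-fold line. The probes lie 29.5 kb apart, and the brighter one was matched to a cDNA clone.
Tnfrsf1b, A_55_P2738892, chr4:144833903-144833961, minus strand: ttttaatgatgatggtgtctcctgtagccc
Tnfrsf1b, A_52_P228621, chr4:144804304-144804363, minus strand: gcaattgcactgtgtgctggacagaattcc
For Tnfrsf1b neither direction can therefore be given for the gene as a whole.

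None of the other receptors with death domains, or binding death ligands, reached 2-fold. Tnfrsf25 (DR3), the receptor of Tnfsf15, had signals of 107 and 44.4, a difference of -0.89 ± 0.24. Ligand and receptor of this pair were thus both dimmer on the aged array. Tnfrsf10b (DR5), the mouse death receptor of Tnfsf10, had 138 and 59.7, a difference of -0.83 ± 0.22. Tnfrsf21 (DR6) had 50.8 and 38.9, a difference of -0.01 ± 0.25, and its second probe gave 0.01. Tnfrsf22 and Tnfrsf23, which bind Tnfsf10 but carry no death domain, were dim. Tnfrsf23 had 38.9 and 21.7, a difference of -0.47 ± 0.30. Tnfrsf22 had 26.4 in the young sample and 13.3, not well above background, in the aged sample, at least 1.43-fold lower.

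None of the receptors known from T cells and their partners reached 2-fold. Tnfrsf4 (OX40) had signals of 119 and 50.1, a difference of -0.87 ± 0.23. Tnfrsf18 (GITR) had 65.7 and 35.8, a difference of -0.50 ± 0.26. Tnfrsf9, the receptor of Tnfsf9, had 114 and 76.1, a difference of -0.21 ± 0.22. The ligand and the receptor in this pair were thus both below 0, the receptor by no more than its error. Tnfrsf14 (HVEM) had 36.8 and 27.1, a difference of -0.07 ± 0.28.

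Tnfrsf13b (TACI), a receptor of B lineage cells, again depended on the probe. Its probe with the higher mean log2 signal, matched to the RefSeq transcript, had signals of 81.8 and 59.1 and a difference of -0.10 ± 0.23, while a probe 2305 bases away, matched to an Ensembl transcript, had 89.9 and 19.7 and a difference of -1.82. This was the widest disagreement among the members with probes measured on both arrays.
Tnfrsf13b, A_55_P1981972, chr11:60960405-60960464, plus strand: atcttctgctgtttcttggtggccttggcc
Tnfrsf13b, A_55_P1981964, chr11:60962770-60962829, plus strand: cctggagaatatagcctggctccatttgca

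Among receptors that epithelial cells are known to carry, Tnfrsf19 (TROY), a receptor without a death domain known from epithelial and neural progenitors, was called lower. Its signals were 297 ± 29.8 (young) and 98.3 ± 10.2 (aged), a difference of -1.22 ± 0.21, or 2.33-fold lower. The second measured probe, 32.4 kb away, had 106 and 68.8 and a difference of -0.25. Tnfrsf12a (Fn14), the receptor of Tnfsf12, was bright on both arrays, with 1607 and 1283 and a difference of 0.05 ± 0.20. For this pair, neither ligand nor receptor differed by more than its error.

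Tnfrsf11a (RANK), the receptor of Tnfsf11, had signals of 959 and 616, a difference of -0.27 ± 0.20. Its other measured probes gave -0.38 and, 30971 bases from the brightest, 0.56. Tnfrsf11b (osteoprotegerin), a soluble decoy for Tnfsf11, had 16.9, not well above background, in the young sample and 21.7 in the aged sample. The limit, 1.66-fold higher, is here the plain difference of 0.73 ± 0.44, and both signals were dim. The shared ligand Tnfsf11 was not measured on either array. Tnfsf13os had 1006 and 1248, a difference of 0.68 ± 0.20, the largest positive difference among genes of the set measured on both arrays. It says nothing on the level of a ligand.

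**Figure D2:**
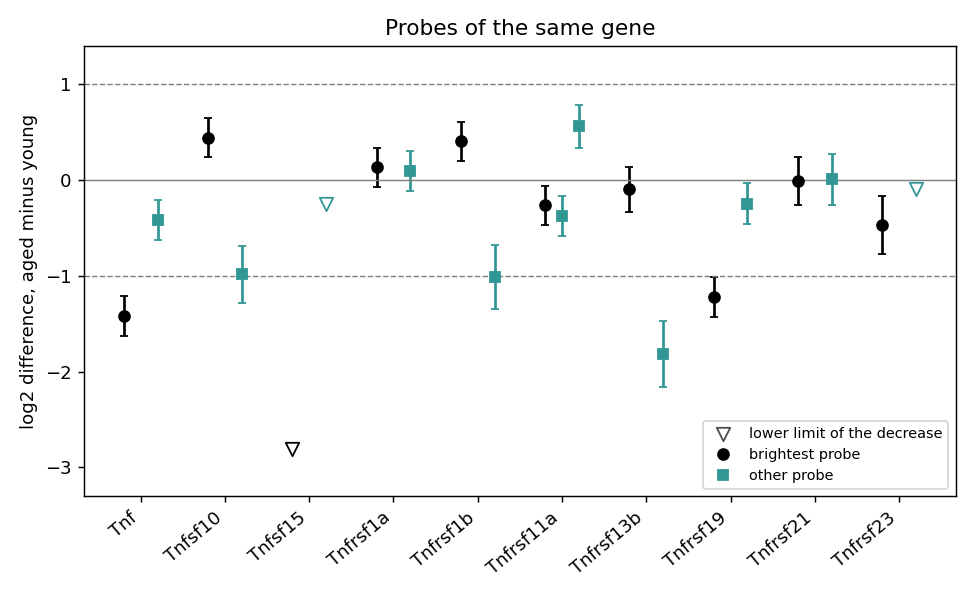
Log2 difference, aged minus young, for each measured probe of the 10 members with several such probes, with bars for the error from the scanning software and triangles for limits. The dashed lines mark 2-fold. The probes of Tnfsf10, Tnfrsf1b and Tnfrsf13b lie far apart, whereas those of Tnfrsf1a and Tnfrsf21 lie together.

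Probes of the same member often disagreed. Of the 8 members with several probes measured on both arrays, 4 had probes more than 1 log2 unit apart (Tnf, Tnfrsf13b, Tnfrsf1b and Tnfsf10), against 6.17% of the 5677 such genes on the array. For Tnf the range was 1.0002, only just over 1. The median range between probes was 0.99 for the 8 members and 0.25 over all such genes. In those 4 genes the probes differed by 3.38 to 4.15 times the error of their difference. Probes of Tnfrsf11a, Tnfrsf1b and Tnfsf10 lay on both sides of 0, as did those of Tnfrsf21, at only -0.01 and 0.01. Of the 10 members with several probes measured on at least 1 array, 5 (Tnf, Tnfsf15, Tnfrsf19, Tnfrsf1b and Tnfrsf13b) had a probe lower by 2-fold, against 7.25% of 6630 such genes, and 0 had all measured probes lower by 2-fold, against 1.3%.

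More members lay below 0 than above. Of the 20 members measured on both arrays, 14 (70%) had a difference below 0, against 40.1% of 18693 genes. Their median difference was -0.24, against 0.09 over all these genes. The 5 ligands had a median of -0.40 and the 14 receptors one of -0.24, with 3 and 11 below 0. For 13 of the 20 the difference was larger than its error. Without Tnfsf13os, the median of the 19 ligands and receptors was -0.27. Where the brightest probe matched to a RefSeq transcript was read in place of the brightest probe, a choice made after the data had been seen, 4 members were lower, Tnfrsf1b being added, against 5.68% of 14191 genes. The median of the 18 members measured on both arrays was then -0.49, with 15 below 0.

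**Figure D3:**
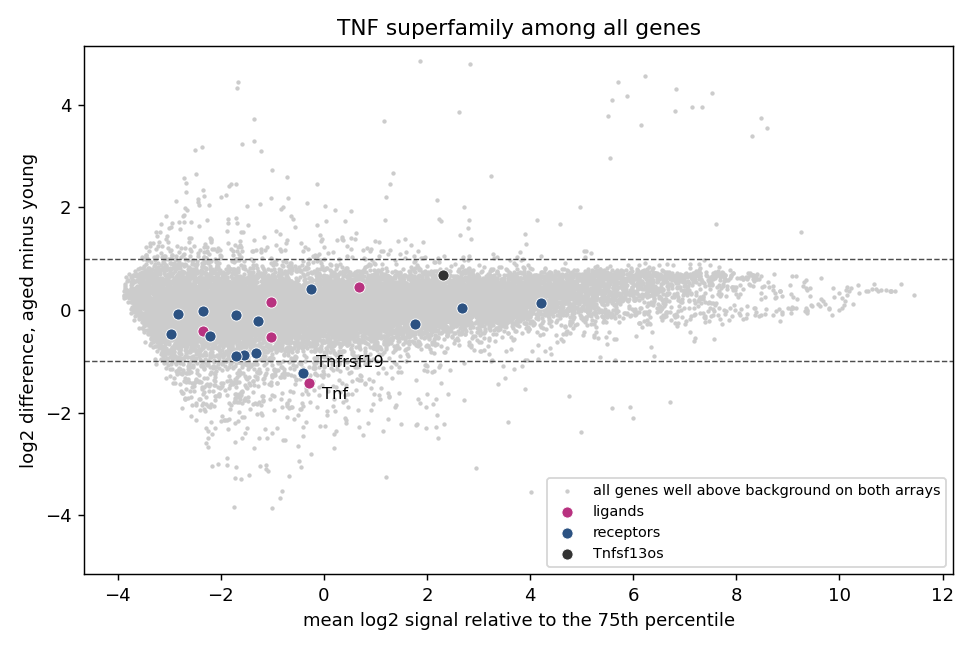
Log2 difference, aged minus young, against the mean log2 signal relative to the 75th percentile for all genes measured on both arrays (grey) and for ligands, receptors and Tnfsf13os. Dashed lines mark 2-fold. Tnf and Tnfrsf19 lie below the lower line, and no member lies above the upper one.

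The calls depended on the scaling to a different degree. Over 7 ways of scaling the arrays or correcting background, Tnf was between -1.68 and -1.05 and Tnfsf15 was bounded between -3.07 and -1.20, so both stayed past 2-fold in each. Tnfrsf19 lay between -1.48 and -0.92 and fell short of 2-fold under the normexp background correction. Tnfrsf25, Tnfrsf4 and Tnfrsf10b, just inside 2-fold, passed it when the arrays were set level on the spike-in controls, and Tnfrsf25 also when the percentile was taken over probes measured on both arrays. The differences of Tnfrsf12a, Tnfrsf13b, Tnfrsf14, Tnfrsf1a, Tnfrsf21 and Tnfsf12 changed sign among the scalings, so they have no direction. That of Tnfsf8 also changed sign, barely, at 0.0018 under the normexp correction, and lay below 0 in the other scalings. The number of members below 0 ran from 11 to 17 of 20 over the scalings, and the share of all genes below 0 from 24.5% with median centring to 67.4% with the spike-in controls. With the probes of a gene averaged, Tnf and Tnfrsf19 were no longer past 2-fold and Tnfsf15 was.

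**Figure D4:**
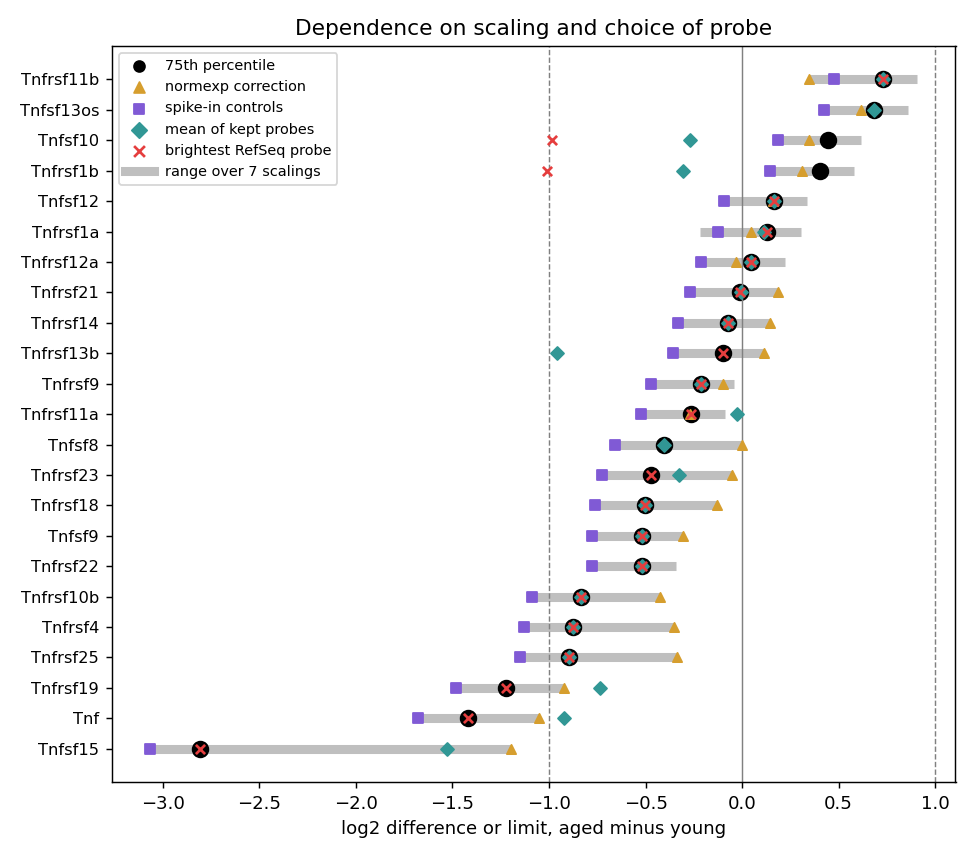
Log2 difference or limit, aged minus young, for the 23 measured members with the 75th percentile scaling and under other settings, and the range over 7 scalings as a grey bar. Tnf and Tnfsf15 stay beyond the dashed 2-fold line throughout their bars, while the mean of the probes brings Tnf inside it.

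Genes around the family were read from lists of other members and of signalling genes. Of 6 ligands under other names, 4 were not measured (Cd40lg, Fasl, Cd70 and Lta), and Ltb and Eda had differences of -0.58 and -0.78. Of 8 receptors under other names, 6 were measured and 0 reached 2-fold. Fas, a death receptor, differed by 0.01, Ltbr, the lymphotoxin receptor, by 0.29, Ngfr by -0.64 and Relt by -0.58. Cd40 was measured on the young array alone, with 17.7 and 3.48, too dim for a limit to be given. Of the 4 genes for release of ligands and receptors from the membrane, Adam10, Adam17, Rhbdf1 and Rhbdf2, 0 reached 2-fold, and their median was -0.34.

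Inside the cell, 3 of the 18 genes for adaptors and death signalling were lower and 0 were higher. Over all measured genes, 5.14% were lower and 2.53% higher, and the counts of these lists were not tested. The list median was -0.12, against 0.09 over all genes measured on both arrays, and ran from -0.38 to 0.05 over the scalings. Traf1, an adaptor that binds Tnfrsf1b and is itself switched on by NF-kB, had signals of 282 and 39.0, a difference of -2.48 ± 0.24. Traf5, an adaptor of Tnfrsf4 among others, had 138 and 34.4, a difference of -1.63 ± 0.26. Ripk3, a kinase of necroptosis, had 77.6 and 22.9, a difference of -1.39 ± 0.32. The adaptors Traf2, Traf3, Traf4 and Traf6 lay between -0.28 and 0.36.

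Of 22 genes for signalling to NF-kB, 3 were lower and 0 were higher, against 5.14% and 2.53% of all measured genes. The median was -0.09 and ran from -0.35 to 0.08 over the scalings. This median and that of the adaptor list therefore have no direction. Rel, an NF-kB subunit, had signals of 397 and 124 and a difference of -1.30 ± 0.21. Nfkbie, an inhibitor of NF-kB, had 173 and 44.3 and a difference of -1.59 ± 0.23. Tnfaip3 (A20), which limits NF-kB signalling and is induced by it, had 1006 and 313 and a difference of -1.31 ± 0.20. The lower genes thus included both a subunit and inhibitors of the pathway.

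Of 17 genes known to be induced by TNF, 4 were lower and 1 was higher, against 5.14% and 2.53% of all measured genes. The median was -0.32 and ran from -0.57 to -0.14 over the scalings. Traf1 and Tnfaip3 are among the lower genes and were already counted in the lists above. The chemokine Ccl2, which draws monocytes, had signals of 1813 and 451, a difference of -1.64 ± 0.20. The chemokine Cxcl2, which draws neutrophils, had 359 and 106, a difference of -1.38 ± 0.21. Cxcl1, also a neutrophil chemokine, went the other way, with 3455 and 8478 and a difference of 1.67 ± 0.20. The list did not move as a block. Traf1, Rel, Tnfaip3, Ccl2, Cxcl2 and Cxcl1 kept their calls in all 7 scalings, and Nfkbie, Traf5 and Ripk3 in 6.

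**Figure D5:**
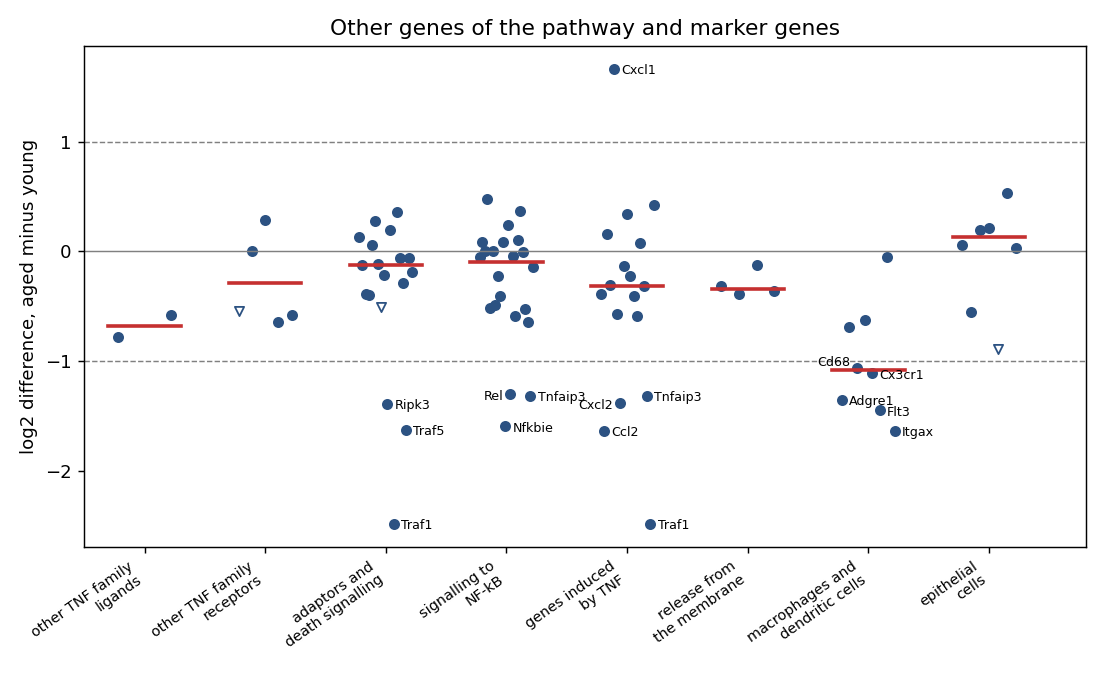
Log2 difference, aged minus young, for the genes in the lists around the family and in the macrophage and epithelial marker lists, with triangles for limits, the median of genes measured on both arrays as a bar and the genes past 2-fold named. Most genes of the signalling lists lie inside the dashed 2-fold lines. The macrophage and dendritic cell markers lie below 0, Itgam only just (-0.05).

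Among markers of other cell types, those of macrophages and dendritic cells and those of fibroblasts lay below 0. Of 8 macrophage and dendritic cell markers, 8 were measured and 8 were below 0, read from the brightest probe. Itgam was below 0 by less than its error, at -0.05 ± 0.20. It ran from -0.61 to 0.12 over the scalings, so it has no direction. Of the 8, 5 were past 2-fold lower (Adgre1, Cd68, Itgax, Cx3cr1 and Flt3), against 5.14% of all measured genes. The median was -1.09 and ran from -1.34 to -0.82 over the scalings. A second Itgax probe went the other way, at 0.42, while the other measured probes of Cd68 and Cx3cr1 were also past 2-fold lower. With the probes of a gene averaged, 4 markers were past 2-fold and the median was -0.89. The aged signal of Flt3, 17.3, was close to the lowest signal well above background, 14.3. The summed level of the 8 markers, as log2 relative to the 75th percentile, was 6.62 (young) and 6.28 (aged). A summed level weights each gene by the brightness of its probe, here mostly Itgam and Csf1r. None was at background, and Itgam and Csf1r were bright on both arrays, with 13247 and 9870 for Itgam and 7302 and 3659 for Csf1r. Macrophages are known as a major source of Tnf, and the part of these cells in the lower values of Tnf, Rel, Ccl2 and the others was not tested. Of the 5 fibroblast markers, 3 were past 2-fold lower (Col1a1, Col1a2 and, by a limit, Pdgfra), against the same 5.14% of all measured genes. Their summed level was 4.14 and 3.07.

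T cell markers did not share 1 direction. Of 8 T cell markers, 6 were measured, and Cd8a and Cd5 were not. Of these 6, 2 were past 2-fold lower (Cd2 and, by a limit, Cd3g), against 5.14% of all measured genes. Cd2 passed 2-fold in 6 of the 7 scalings and Cd3g in 4. The median of the 5 measured on both arrays was 0.56, and the summed level was 3.48 and 3.71. The 7 epithelial markers were measured on at least 1 array, and 0 were past 2-fold. Their summed level was 8.95 and 9.11, mostly from Krt18 and Krt8. This level does not measure the purity of the cells, for which the study's methods give only a lower bound. The median of the 6 epithelial markers measured on both arrays was 0.13. It ran from -0.33 to 0.30 over the scalings, so it has no direction. Krt19 was measured on the young array alone, with 34.2 and 12.4, at least 1.85-fold lower. It passed 2-fold in 2 of the 7 scalings. Of 4 neutrophil markers, 3 were measured, and Cxcr2 was not. S100a8 and S100a9 were higher by limits, while Ly6g had 68.7 and 46.7 and a difference of -0.18. In other lists, 1 of 4 acinar markers (Smgc) and 1 of 5 basal and myoepithelial markers (Myh11) were lower, against the same 5.14%. Another Myh11 probe measured on both arrays gave 0.12, and a further one was past 2-fold lower by a limit. In the plasma cell, NK cell, endothelial, pericyte and granular duct lists 0 genes reached 2-fold. The part of T cells in the readings of Tnfrsf4, Tnfrsf18, Tnfrsf9 and Tnfsf8 was not tested.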

How the data were processed

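The authors labelled RNA with Cy3 and scanned 1-colour Agilent mouse arrays, 1 for each age on the same slide. The deposited files hold the intensity of each spot, background-corrected by Agilent Feature Extraction 12.0.3.1 and not scaled between arrays. The authors' processed table, with intensity divided by a constant per array, served as an alternative. From the deposited intensity, log2 signal minus the 75th percentile over 59305 non-control spots was computed. Spots marked as outliers on either array (90 young, 93 aged) were left out. On the young array 32875 spots (55.4%) and on the aged array 30111 (50.8%) were well above background, which limits the precision of dim probes. Probes had to be well above background on 1 array or both, and the brightest by mean log2 stood for its gene. With 1 array measured, the other was set to its lowest signal well above background, 14.1 young or 14.3 aged, or the probe's own if higher, which gives a limit. Names are those in the files, and all 31 member names were also in a RefSeq gene table. By rule, every member was named, and of the pathway lists the genes past 2-fold. Other genes named were chosen after their values were seen.

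Members and lists were chosen with earlier results of these data known. Alternatives were median centring, a percentile over probes measured on both arrays, quantile, loess (span 0.7, 3 iterations), spike-in controls, normexp (offset 50), filters on dim probes, outliers kept and probe means, and, after the data had been seen, the brightest RefSeq probe. R 4.3.3 with limma 3.58.1, and Python 3.11.15 with numpy 2.4.6, pandas 2.3.3 and matplotlib 3.10.9 were used. The steps were tested on simulated data. The result of 1 marker list is not reported here.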

Additional observations from a re-analysis of the deposited data

How the results depend on the processing

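No paired analysis was possible because each age had 1 array, and for the same reason no replicate could be left out. The count of 3 members lower became 6 with the arrays set level on 280 spike-in spots and 1 with the probes of a gene averaged, and lay between 2 and 4 under the other alternatives. No member was higher under any of them. The median of the members measured on both arrays, -0.24, became -0.50 with the spike-in controls and -0.49 with RefSeq probes, and lay between -0.35 and -0.04 otherwise. The median of all genes moved with the scaling as well, from 0.27 with median centring to -0.16 with the spike-in controls, while the members' median stayed below it by 0.14 (normexp) to 0.55 (RefSeq probes). Over all genes, 1094 were lower and 538 higher, against 865 and 800 with median centring, 990 and 670 with quantile normalization, 1611 and 348 with the spike-in controls, 297 and 182 with normexp, 568 and 284 when both arrays had to be measured, and 2398 and 1680 without a filter. Without that filter Tnfrsf17 counted as lower, from signals of 9.09 and 3.27 that were both not well above background. Of 270 values of single members under an alternative, 230 moved by less than their error and 40 by more, and 23 had another sign, none of a called member. The causes were not tested. Signals near 14 cannot be told from background, which limits the readings of dim probes.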
